A study of Mus musculus with 5 samples.

Results

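The genes described here are 10 mouse genes of cytotoxic lymphocytes and of the CD8 T cell lineage, followed through 5 libraries of regulatory T cells (Tregs). They were taken by symbol, as a fixed list with no cut on their values: Gzma, Gzmb, Gzmk, Prf1, Nkg7, Cd8a, Cd8b1, Klrd1, Klrk1 and Eomes. The list was written with earlier results of these data known. The deposited tables carry Ensembl gene IDs, and each of the 10 symbols matched a single ID. These are 10 of the 49260 gene symbols in the tables, of which 17352 had a value above 0 in at least 1 library. Of the 10 genes, 9 had a value above 0 in at least 1 library, and Prf1 had none.

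Tregs were sorted from fat or lymph nodes of C57BL/6 mice, and 1 library of messenger RNA was sequenced for each of 5 groups. The library labelled Med23 KO came from adipose tissue of 10-month Med23fl/fl;Foxp3Cre mice, in which Cre expressed from Foxp3 is meant to delete floxed Med23 in Tregs. Its comparator came from adipose tissue of 10-month Foxp3Cre mice. At 4 months of age there was an obese adipose library, with HFD (commonly high-fat diet) in its title, an adipose library with no such label, called lean here, and a lymph node (LN) library, all from Foxp3Cre mice. All 5 groups thus carried Foxp3Cre, which the sample titles call WT where Med23 is not floxed. The sources used here give neither the sorting gate nor whether cells of several mice were pooled. With 1 library per group the spread between mice is unknown, so differences were not tested and no p-value is given.

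Cytotoxic lymphocytes kill by releasing granules that hold the pore-forming protein perforin (Prf1) and serine proteases called granzymes, which enter the target cell through the pore. CD8 T cells and natural killer (NK) cells are the main carriers of this machinery. Tregs belong to the CD4 lineage, in which the CD8 genes are kept silent, but activated Tregs are known to make granzyme B. Klrd1 (CD94) and Klrk1 (NKG2D) are lectin-like receptors of NK cells and cytotoxic T cells that read class I and stress-induced ligands on other cells. Eomes is a T-box transcription factor of cytotoxic T and NK cells.

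The promoters of the 3 granzyme genes are shown because Gzmb differed in pattern from Gzma and Gzmk over the 5 libraries. Whether the sequences bear on these patterns was not tested. Sequences are from RefSeq, build GRCm38.p6, where 8 of the 10 genes matched a promoter window of 300 bases, from 250 before to 50 after the start. They are printed 5′ to 3′ on the strand of the gene. Capitals mark matches, on either strand, to a T-box core (AGGTGT, or ACACCT on the other strand), a RUNX core (TGTGGT, or ACCACA on the other strand) or an AP-1 core (TGANTCA, its own reverse complement and counted once). T-box factors include Eomes and Tbx21, RUNX factors include Runx3, and AP-1 is the pair of Fos and Jun proteins that follows T cell receptor signalling. The windows are chr13:113100932-113101231 (minus strand) for Gzma, chr13:113180916-113181215 (minus strand) for Gzmk and chr14:56262285-56262584 (minus strand) for Gzmb.
Gzma: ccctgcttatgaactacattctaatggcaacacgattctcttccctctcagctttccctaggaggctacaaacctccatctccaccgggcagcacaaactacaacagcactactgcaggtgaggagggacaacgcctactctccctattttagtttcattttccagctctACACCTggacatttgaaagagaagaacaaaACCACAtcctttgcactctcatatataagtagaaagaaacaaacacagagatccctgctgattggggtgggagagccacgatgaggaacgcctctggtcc
Gzmk: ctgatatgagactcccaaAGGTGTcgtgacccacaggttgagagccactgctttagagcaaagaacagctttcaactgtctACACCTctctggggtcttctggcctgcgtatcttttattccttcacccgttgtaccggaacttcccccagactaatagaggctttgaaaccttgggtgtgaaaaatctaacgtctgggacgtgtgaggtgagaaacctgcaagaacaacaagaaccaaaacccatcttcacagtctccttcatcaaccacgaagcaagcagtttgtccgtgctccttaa
Gzmb: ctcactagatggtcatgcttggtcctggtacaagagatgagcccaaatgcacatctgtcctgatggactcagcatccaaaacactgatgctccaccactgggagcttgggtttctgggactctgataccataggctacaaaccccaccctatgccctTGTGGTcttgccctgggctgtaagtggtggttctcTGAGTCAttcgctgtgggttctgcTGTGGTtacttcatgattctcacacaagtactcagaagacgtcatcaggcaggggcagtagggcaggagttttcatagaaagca
The Gzma window held 1 T-box and 1 RUNX match, the Gzmk window 2 T-box matches, and the Gzmb window 2 RUNX matches and 1 AP-1 match. No 2 of these matches shared a base. Of all 32851 promoter windows of this length, 13.7% held the T-box core, 16.8% the RUNX core and 7.81% the AP-1 core. The Prf1 and Nkg7 windows each held 1 T-box and 1 RUNX match, the Klrk1 window 1 RUNX and 1 AP-1 match, and the Cd8a and Eomes windows none of the 3. A match describes these letters only and is not a binding site.

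The deposited values stood for 4595046 reads in the library labelled Med23 KO, 9650769 in 10-month Foxp3Cre, 7496496 in obese adipose, 8540594 in lean adipose and 9694474 in LN. Levels are given as CPM, which scales every library to an equal sum, so that libraries of separately normalised tables can be set side by side. The targeted gene Med23 did not follow its label, with 71 reads (15.5 CPM) in the library labelled Med23 KO and 61 reads (6.32 CPM) in 10-month Foxp3Cre. Med23 also varied among the other libraries without floxed Med23, at 46.84 CPM in lean adipose, 33.35 in obese adipose and 6.395 in LN. Reads counted over a whole gene cannot tell whether the floxed part was deleted or whether labels were swapped. Foxp3 was between 155 and 216 CPM in the 4 adipose libraries and 52.5 CPM in LN, and Cd4 was between 96.6 and 198 CPM in all 5. The Y-linked gene Ddx3y was at 562 CPM in obese and 560 CPM in lean adipose, and had no value above 0 in the other libraries. Xist, a gene expressed in female cells, was at 602 CPM in the library labelled Med23 KO, 440 in 10-month Foxp3Cre and 228 in LN. It was at 3.60 CPM in obese and 0 in lean adipose. By these genes the obese and lean libraries read as male and the others as female. The common glycolytic gene Gapdh was at 10.7 CPM in obese and 1.05 CPM in lean adipose, against 548 to 979 CPM elsewhere, and Cdk2ap2 was listed at 0 in both of these adipose libraries, against 318 to 1420 CPM elsewhere. A listed 0 in those libraries is therefore not taken as absence of a transcript.

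Values under 1 scaled count were deposited as 0, so a listed 0 can hide a few reads, at most 5 in the library labelled Med23 KO and at most 9 elsewhere. For most zeros of the 10 genes the exact reads followed from the authors' deposited fold changes, and where they did not, the gene is called listed at 0. A gene with no value in a table had no LN reads wherever this could be checked. For the adipose libraries it could not be checked, and no value was taken as no reads. This concerns Gzma and Klrd1 in the 10-month table, and Gzmk, Klrd1, Klrk1 and Eomes in lean adipose. It also concerns Prf1 in lean adipose, obese adipose and LN. A count of 0 allows up to 3 reads, which is 0.653 CPM in the library labelled Med23 KO and 0.310 CPM in LN. Genes at 0 in a single library were common. Of all genes at 5 to 20 CPM in one library of a compared pair, between 12.8% and 37.3% were listed at 0 in the other, and of those at 20 to 80 CPM between 2.35% and 12.8%. Intervals in parentheses are 95% intervals that cover counting error only.

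Gzmb, which encodes the granzyme that cleaves caspases in target cells, was the only granzyme listed above 0 in all 5 libraries. It had 175 reads in the library labelled Med23 KO (38.1 CPM), 1695 in 10-month Foxp3Cre (176 CPM), 272 in obese adipose (36.3 CPM), 1504 in lean adipose (176 CPM) and 169 in LN (17.4 CPM). The 10-month Foxp3Cre and lean adipose libraries stood together at the top, with the 10-month value 1.003-fold lower in CPM (0.935 to 1.08). The library labelled Med23 KO and the obese library stood together below them, 1.05-fold apart in CPM (0.863 to 1.27), and LN was lowest. As a share of Gzmb plus Foxp3 reads, Gzmb took 19.7% in the library labelled Med23 KO, 48.7% in 10-month Foxp3Cre, 16.8% in obese adipose, 44.9% in lean adipose and 24.9% in LN. That scale is free of the library total but depends on Foxp3, which was itself lowest in LN in CPM. The LN share (21.7 to 28.4) lay above the obese one (15.0 to 18.7). It overlapped that of the library labelled Med23 KO (17.1 to 22.5) within counting error.

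Gzma encodes a tryptase that needs no caspase, and Gzmk a related tryptase, and these neighbours on chromosome 13 had another pattern. Gzma had 224 reads in obese adipose (29.9 CPM) and 45 in lean adipose (5.27 CPM), no reads in LN and no value in either 10-month library. Gzmk had 199 reads in obese adipose (26.5 CPM), no value in lean adipose and no reads in LN, and was listed at 0 in both 10-month libraries. The obese library was thus the highest for both genes and, for Gzmk, the only one with a listed value. Prf1 had no value in the 3 libraries of 4-month mice and was listed at 0 in both 10-month libraries. There the threshold leaves room for at most 5 reads in the library labelled Med23 KO, against 8 in Foxp3Cre.

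Per kilobase of exon (GENCODE M21 gene models, all annotated exons of a gene merged), the granzymes lay close together in obese adipose and far apart in lean adipose. Length is adjusted only roughly this way, so close values are not read as an order. In obese adipose Gzma had 29.7 CPM per kb, Gzmb 25.3 and Gzmk 19.1, while in lean adipose Gzmb had 123 and Gzma 5.24. Nkg7 was above every granzyme in 4 of the 5 libraries on this scale, at 246 CPM per kb in the library labelled Med23 KO, 321 in obese adipose, 335 in lean adipose and 373 in LN. In 10-month Foxp3Cre, Nkg7 had 101 CPM per kb and Gzmb 122.

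**Figure D1:**
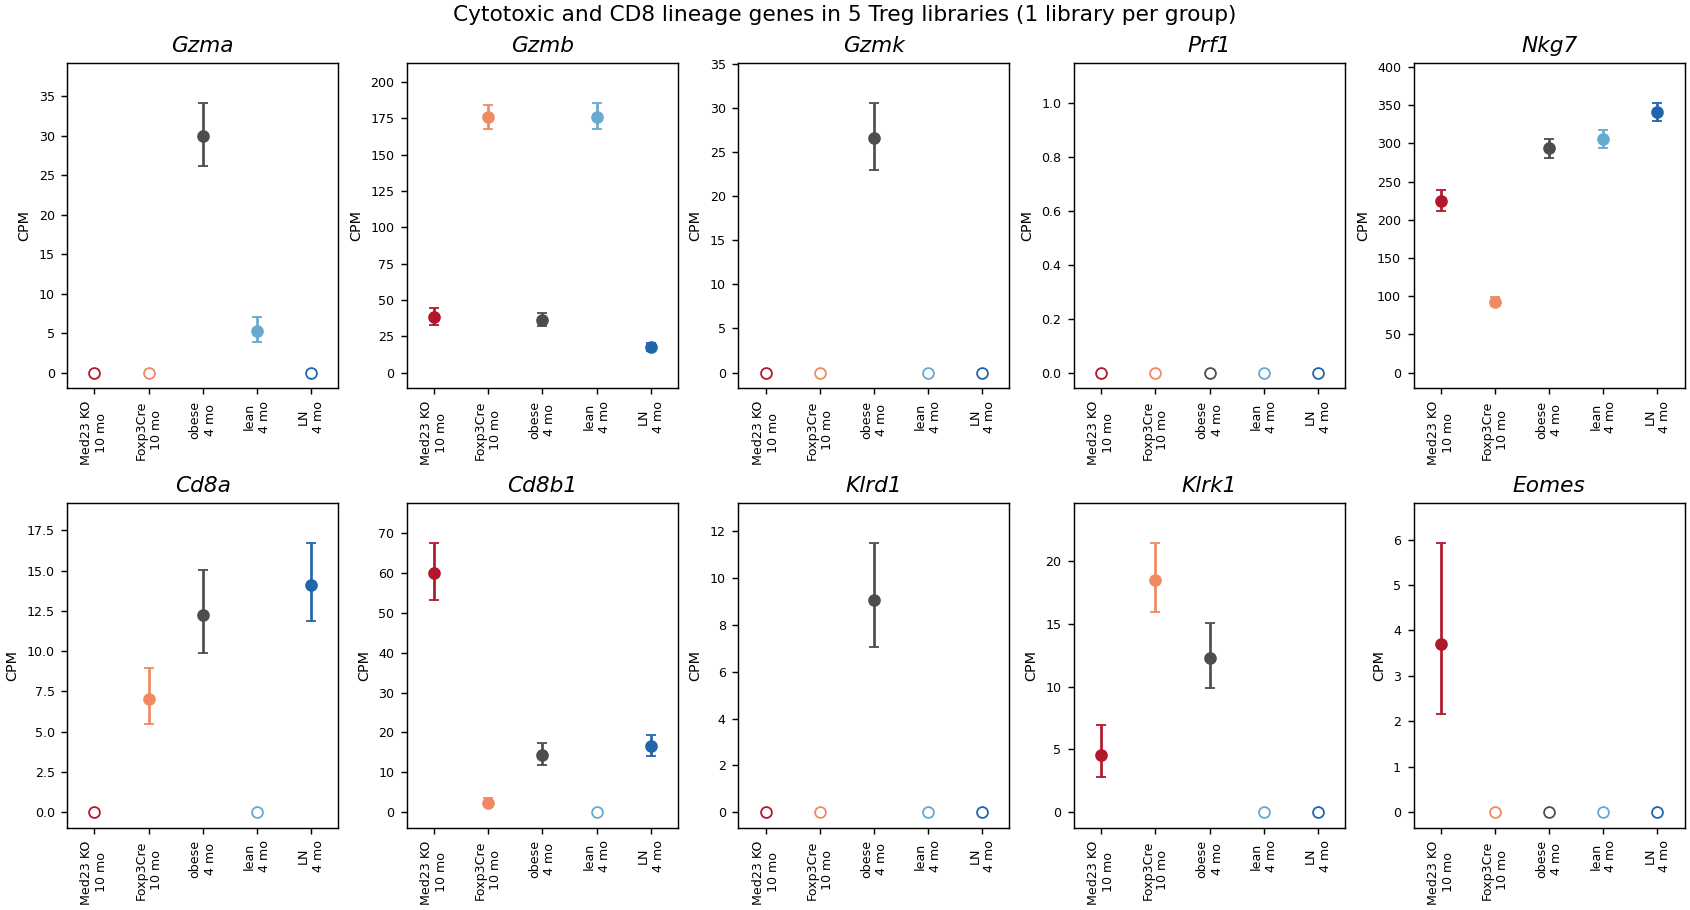
Levels of the 10 genes in CPM (vertical axes, linear, 1 panel per gene with its own range) in the 5 libraries, with bars for the 95% Poisson interval of the reads and open circles for a listed 0 or no value. Gzmb was at 176 CPM in 10-month Foxp3Cre and in lean adipose, Gzmk and Klrd1 were above 0 in obese adipose alone, and Cd8b1 reached 60.1 CPM in the library labelled Med23 KO, where Cd8a had no reads.

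Of the 7 other granzymes, 5 (Gzmd, Gzme, Gzmf, Gzmg and Gzmn) were listed at 0 or had no value in all 5 libraries. Gzmm, the granzyme with a preference for methionine, was at 23.5 CPM in the library labelled Med23 KO, 4.25 in 10-month Foxp3Cre and 1.73 in obese adipose. It was listed at 0 in lean adipose and LN. Gzmc was above 0 in lean adipose alone, with 104 reads (12.2 CPM). Gzmc sits beside Gzmb in a cluster of very similar genes, and the sources used here do not say how reads shared by such copies were counted, so this value is uncertain.

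For counts of genes, a gene was measured in a comparison if it had a value of at least 1 in either library, and was called if its ratio, log2 of (value + 1) over (value + 1), was 2-fold or more. Values within a deposited table are the authors' scaled counts and values across tables are CPM. A gene measured only through the library in which it is high had to differ, so the counts describe the libraries and are set beside the share of all measured genes called in the same way.

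The genes that load and release granules were read in every library, all 10 of 10. Srgn, the proteoglycan that packs granzymes, had 3447 CPM in the library labelled Med23 KO, 6475 in 10-month Foxp3Cre, 3529 in obese adipose, 4094 in lean adipose and 2301 in LN. Stx11, a syntaxin of granule fusion, had 586.5 CPM in the library labelled Med23 KO, 701 in 10-month Foxp3Cre, 263.5 in obese adipose, 335 in lean adipose and 55.5 in LN. Ctsw, a protease found in cytotoxic cells, went the other way, with 4.57 CPM in the library labelled Med23 KO, 39.7 in 10-month Foxp3Cre, 18.9 in obese adipose, 25.1 in lean adipose and 161 in LN. Of these 10 loading and release genes, the lean library had 4 higher and 1 lower than LN by at least 2-fold, where 37.6% of all measured genes were higher and 32.1% lower (median log2 ratio 0.55, against 0.14 over all measured genes). In obese adipose over LN 4 were higher and 1 lower, where 41.7% and 23.7% of all genes were (0.50, against 0.44). In 10-month Foxp3Cre over LN 5 were higher and 3 lower, where 34.3% and 29.8% of all genes were (0.56, against 0.09). Of the same 10, 3 were higher and 4 lower in the library labelled Med23 KO over Foxp3Cre, where 28.6% and 34.9% of all genes were (-0.62, against -0.15).

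Serpinb9, whose protein blocks granzyme B inside the cell that makes it, had 220.0 CPM in the library labelled Med23 KO, 201 in 10-month Foxp3Cre, 451 in obese adipose, 176 in lean adipose and 58.1 in LN. Over LN and in the authors' scaling, it was 2.74-fold higher in the lean library (2.49 to 3.03) and 6.90-fold higher in the obese one (6.31 to 7.55). Serpinb9 was thus highest in the obese library, where Gzmb was lower than in the lean one. Of the 6 inhibitors and death ligands, 2 of 5 measured were higher and 2 lower in lean adipose over LN, beside 37.6% and 32.1% of all genes (median log2 ratio 0.79, against 0.14). In obese adipose over LN 2 of 5 were higher and 1 lower, beside 41.7% and 23.7% of all genes (0.98, against 0.44), and in 10-month Foxp3Cre over LN 3 of 5 were higher and 0 lower, beside 34.3% and 29.8% (1.70, against 0.09). Set against Foxp3Cre, the library labelled Med23 KO had 1 of 6 higher and 2 lower, beside 28.6% and 34.9% of all genes (-0.19, against -0.15). The death ligand Fasl was between 12.5 and 37.6 CPM in all 5 libraries.

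Nkg7 encodes a small membrane protein of cytotoxic granules. It had 1034 reads in the library labelled Med23 KO (225 CPM), 894 in 10-month Foxp3Cre (92.6 CPM), 2201 in obese adipose (294 CPM), 2614 in lean adipose (306 CPM) and 3301 in LN (340.5 CPM). Per exon length it had the highest value of the 10 genes in every library but 10-month Foxp3Cre, where its value and that of Gzmb were close. The 3 libraries of 4-month mice lay within a narrow range, with the lean and obese values 1.04-fold apart in CPM (0.985 to 1.10, obese lower), and the 10-month Foxp3Cre library was lowest. As a share of Nkg7 plus Cd3e reads, Cd3e being a chain of the T cell receptor complex, Nkg7 took 51.5% in the library labelled Med23 KO, 30.3% in 10-month Foxp3Cre, 64.7% in obese adipose, 68.3% in lean adipose and 51.6% in LN.

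Cd8a and Cd8b1 encode the alpha and beta chains of the CD8 co-receptor, which pairs either as alpha with beta, the form of conventional CD8 T cells, or as alpha with alpha, the form of some innate-like T cells and dendritic cells. Cd8a had no reads in the library labelled Med23 KO, 68 reads in 10-month Foxp3Cre (7.05 CPM), 92 in obese adipose (12.3 CPM), none in lean adipose and 137 in LN (14.1 CPM). Cd8b1 had 276 reads in the library labelled Med23 KO (60.1 CPM), 22 in 10-month Foxp3Cre (2.28 CPM), 108 in obese adipose (14.4 CPM), 2 in lean adipose and 160 in LN (16.5 CPM). Obese adipose and LN thus had like reads of both chains, and lean adipose had neither above the listing threshold. In reads, which are not adjusted for exon length, each 10-month library leaned to a different chain.

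Of the reads of both chains together, Cd8a took 0 of 276 in the library labelled Med23 KO, with an upper bound of 1.33% (exact Clopper-Pearson). In 10-month Foxp3Cre it took 75.6% (65.4 to 84.0), in obese adipose 46.0% (39.0 to 53.2) and in LN 46.1% (40.4 to 52.0). The obese and LN shares overlap within counting error, and the shares of the 10-month libraries lie outside them on opposite sides. Per kilobase of exon, Cd8b1 exceeded Cd8a at 9.72 against 3.37 CPM per kb in obese adipose and at 11.1 against 3.89 in LN, and in 10-month Foxp3Cre Cd8b1 had 1.54 and Cd8a 1.94. In the library labelled Med23 KO, Cd8b1 was at 40.5 CPM per kb.

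Set against Cd4, the co-receptor of the Treg lineage, Cd8b1 took 31.1% of Cd8b1 plus Cd4 reads in the library labelled Med23 KO, 1.85% in 10-month Foxp3Cre, 6.80% in obese adipose, 0.231% in lean adipose and 14.6% in LN. The same share for Cd8a was 0% in the library labelled Med23 KO, 5.49% in 10-month Foxp3Cre, 5.85% in obese adipose, 0% in lean adipose and 12.8% in LN. Zbtb7b, which encodes ThPOK, the factor that keeps CD8 genes silent in CD4 cells, was listed at 0 with 1 read in the library labelled Med23 KO. It was at 2.18 CPM in 10-month Foxp3Cre, 12.5 in obese adipose, 8.31 in lean adipose and 10.4 in LN. Runx3, a factor of the CD8 lineage that silences Cd4, was at 50.3 CPM in the library labelled Med23 KO, 10.6 in 10-month Foxp3Cre, 30.4 in obese adipose, 21.7 in lean adipose and 52.2 in LN. In bulk libraries fewer cells of a type and less RNA per cell cannot be told apart.

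**Figure D2:**
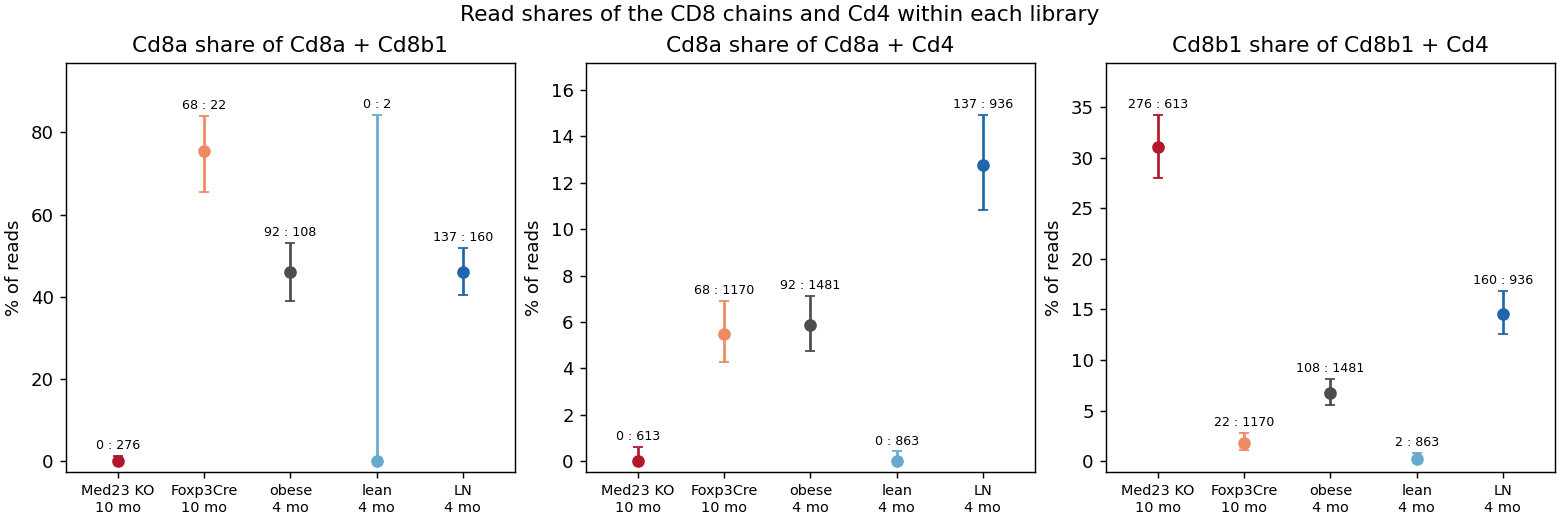
Share of reads in percent (vertical axes, linear) that Cd8a takes of Cd8a plus Cd8b1, Cd8a of Cd8a plus Cd4, and Cd8b1 of Cd8b1 plus Cd4, for the 5 libraries, with exact 95% intervals of counting error and the reads behind each point. Cd8a took 0 of 276 reads in the library labelled Med23 KO, against 75.6% in 10-month Foxp3Cre, and the lean library has too few reads (0 and 2) for a share.

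Klrk1 encodes NKG2D, an activating receptor for stress-induced ligands. It had 21 reads in the library labelled Med23 KO (4.57 CPM), 179 in 10-month Foxp3Cre (18.6 CPM) and 92 in obese adipose (12.3 CPM). Klrk1 had no value in lean adipose and no reads in LN. The 10-month Foxp3Cre library stood 1.51-fold above the obese one in CPM (1.17 to 1.97). Hcst (DAP10), the adaptor through which NKG2D signals, was high in all 5 libraries, at 140 CPM in the library labelled Med23 KO, 184 in 10-month Foxp3Cre, 353 in obese adipose, 362.5 in lean adipose and 429.5 in LN. Tyrobp (DAP12), the other adaptor of mouse NKG2D and also a myeloid cell gene, had no reads in the library labelled Med23 KO or LN, and was at 26.2 CPM in 10-month Foxp3Cre, 513 in obese adipose and 86.7 in lean adipose.

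Klrd1 encodes CD94, which pairs with NKG2 chains such as the inhibitory NKG2A (Klrc1). It had 68 reads in obese adipose (9.07 CPM), no reads in LN, and no value in lean adipose or the 10-month table. Klrc1 was at 10.8 CPM in obese adipose and also at 14.5 CPM in 10-month Foxp3Cre, where its partner Klrd1 had no value, and had 4 reads, listed as 0, in the library labelled Med23 KO. It had no reads in lean adipose or LN. Of the list of 19 NK receptors and adaptors, 3 were above 0 in the library labelled Med23 KO, 5 in 10-month Foxp3Cre, 7 in obese adipose, 3 in lean adipose and 3 in LN. In obese adipose over LN 6 of the 9 measured were higher and 2 lower, beside 41.7% and 23.7% of all genes (median log2 ratio 2.18, against 0.44), and those 6 were all at 0 in LN and measured only through the obese library. In lean adipose over LN 2 of 5 were higher and 2 lower, beside 37.6% and 32.1% (-0.39, against 0.14), and in 10-month Foxp3Cre over LN 3 of 6 were higher and 3 lower, beside 34.3% and 29.8% (1.26, against 0.09). In the library labelled Med23 KO over Foxp3Cre 2 of 7 were higher and 4 lower, beside 28.6% and 34.9% (-2.94, against -0.15).

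The class I ligands of these receptors include H2-T23, whose product presents leader peptides to CD94 with NKG2A, and H60b and Ulbp1, ligands of NKG2D. H2-T23 was between 156 and 378 CPM in all 5 libraries. H60b was at 92.3 CPM in the library labelled Med23 KO, 72.7 in 10-month Foxp3Cre, 87.4 in obese adipose, 55.0 in lean adipose and 16.3 in LN. The list of 9 genes also holds the general class I genes B2m, H2-K1 and H2-D1. In lean adipose over LN 2 of the 6 measured were higher, among them H2-K1, and 3 lower, among them B2m. Of all genes 37.6% were higher and 32.1% lower (median log2 ratio -0.31 for the list, against 0.14). In obese adipose over LN 1 of 6 was higher and 0 lower, beside 41.7% and 23.7% (-0.04, against 0.44), and in 10-month Foxp3Cre over LN 3 of 7 were higher and 1 lower, beside 34.3% and 29.8% (0.66, against 0.09). In the library labelled Med23 KO over Foxp3Cre 1 of 7 was higher and 3 lower, beside 28.6% and 34.9% (-0.63, against -0.15). H60b and its relatives are similar in sequence, so their reads may have been split in counting.

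Eomes was listed above 0 in a single library, with 17 reads in the library labelled Med23 KO (3.70 CPM), and had 1 read, listed as 0, in Foxp3Cre. It had no value in lean adipose, had no reads in LN and was listed at 0 in obese adipose. Its relative Tbx21 (T-bet), which drives Gzmb, Prf1 and Ifng in cytotoxic cells, was at 18.9 CPM in the library labelled Med23 KO, 2.80 in 10-month Foxp3Cre, 12.01 in obese adipose, 1.17 in lean adipose and 0 in LN. Both T-box genes were thus highest in the library labelled Med23 KO. The zinc finger factor Zeb2, which marks terminal effector cells, had 30.5 CPM in the library labelled Med23 KO, 183 in 10-month Foxp3Cre, 136 in obese adipose and 97.0 in lean adipose, with no reads in LN. Of the 10 factors listed, the lean library had 8 of the 9 measured higher than LN by at least 2-fold and 1 lower, beside 37.6% and 32.1% of all genes (median log2 ratio 1.85, against 0.14). The counts were 8 higher and 0 lower in obese adipose over LN, beside 41.7% and 23.7% (2.05, against 0.44), and 8 higher and 1 lower in 10-month Foxp3Cre over LN, beside 34.3% and 29.8% (2.51, against 0.09). Set against Foxp3Cre, the library labelled Med23 KO had 2 higher and 4 lower, beside 28.6% and 34.9% (-0.94, against -0.15). The 3 comparisons with LN share that LN library. In each of them Tbx21 and Zeb2 were at 0 in LN and measured only through the adipose library. In lean adipose over LN the 1 lower factor was Runx3, and Id2, Stat4, Prdm1, Nfil3 and Hopx were among the higher ones.

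Lean adipose against LN Tregs compares fat with lymphoid tissue, together with a difference in Ddx3y (560 CPM in lean adipose, 0 in LN) and Gapdh (1.05 CPM in lean adipose, 979 in LN), whose part in the result was not tested. Gzmb was higher and both CD8 chains were lower in the lean library, and Nkg7 was within 2-fold. Gzmb had 168 scaled counts in lean adipose and 18.3 in LN, a 9.16-fold higher value (7.80 to 10.8). Gzma had 5.01 in lean adipose and no reads in LN, at least 15.4-fold higher against the 3 reads that a count of 0 allows. Cd8a had no reads in lean adipose and 14.8 scaled counts in LN, at least 44.4-fold lower, and Cd8b1 had 2 reads in lean adipose and 160 in LN, 77.8-fold lower (21.2 to 648). Nkg7 had 291 scaled counts in lean adipose and 357 in LN, 1.23-fold lower (1.17 to 1.29). Of the 5 measured genes 2 were called higher, where 37.6% of 13501 measured genes were, and 2 lower, where 32.1% were, with medians of -0.29 for the 5 genes and 0.14 for all. Of genes at 5 to 20 CPM in LN, the range in which both CD8 chains lay, 28.7% were listed at 0 in lean adipose. In the authors' deposited table, Gzmb, Cd8a and Cd8b1 carry the mark of a changed gene and Gzma and Nkg7 do not.

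Obese adipose against LN Tregs carries a like difference in Ddx3y (562 CPM in obese adipose, 0 in LN) and Gapdh (10.7 CPM in obese adipose, 979 in LN). Tissue, the HFD label and the sex read from Ddx3y and Xist all differ here and cannot be told apart. Gzma, Gzmk, Klrk1 and Klrd1 were read in the obese library and not in LN, and Gzmb, Nkg7 and both CD8 chains were within 2-fold. Gzma had 28.1 scaled counts in obese adipose, at least 85.8-fold higher, and Gzmk 25.0, at least 76.2-fold higher. Klrk1 had 11.6, at least 35.2-fold higher, and Klrd1 8.54, at least 26.0-fold higher. Gzmb had 34.2 scaled counts in obese adipose and 18.5 in LN, 1.85-fold higher (1.52 to 2.25), and Nkg7 had 276.5 in obese adipose and 361 in LN, 1.31-fold lower (1.24 to 1.38). Cd8a had 11.6 scaled counts in obese adipose and 15.0 in LN, 1.30-fold lower (0.988 to 1.71), and Cd8b1 had 13.6 in obese adipose and 17.5 in LN, 1.29-fold lower (1.004 to 1.66), so the Cd8a difference lies within counting error. Of the 8 measured genes 4 were called higher, where 41.7% of 14671 were, and 0 lower, where 23.7% were, with medians of 2.05 for the 8 genes and 0.44 for all. In CPM Gzmb also passed 2-fold, at 2.08-fold (1.71 to 2.54), and 5 genes were called higher. Centred on the median of all genes, 4597 genes were higher and 4596 lower, against 6125 and 3471 without centring, and the calls of the 8 genes were as before. Of genes at 5 to 20 CPM in the obese library, 35.1% were listed at 0 in LN, and of those at 20 to 80 CPM 8.88%. The authors' deposited table marks Gzma, Gzmk, Klrd1 and Klrk1 as changed.

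Obese against lean adipose Tregs, read across the tables in CPM, gave opposite directions for Gzmb and for Gzma and Gzmk. Gzmc, outside the 10 genes, was lower in obese adipose, as Gzmb was, with no value against 104 reads in lean adipose. Gzmb was 4.85-fold lower in the obese library (4.26 to 5.54). Gzma was 5.67-fold higher (4.10 to 7.996), and Gzmk was at least 75.6-fold higher. Cd8a and Klrk1, with 92 reads each in obese adipose, were each at least 34.9-fold higher, and Klrd1 at least 25.8-fold. Cd8b1 was 61.5-fold higher (16.6 to 514.5). Cd8a had no reads in lean adipose, and for Gzmk, Klrk1 and Klrd1 no value there was taken as no reads. Of the 8 measured genes 6 were called higher, where 34.0% of 14764 were, and 1 lower, where 18.6% were, with medians of 3.53 for the 8 genes and 0.20 for all. Of genes at 5 to 20 CPM in obese adipose, 29.0% were listed at 0 in lean adipose, and of those at 20 to 80 CPM 4.65%. The obese and lean libraries are alike in Ddx3y and in their low Gapdh.

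The 10-month Foxp3Cre adipose library against LN, in CPM, shared the high Gzmb of lean adipose. Gzmb was 10.1-fold higher (8.60 to 11.9), and Klrk1, with no reads in LN, at least 59.9-fold higher. Nkg7 was 3.68-fold lower (3.41 to 3.96), Cd8b1 7.24-fold lower (4.62 to 11.9) and Cd8a 2.01-fold lower (1.49 to 2.72), the last falling short of 2-fold once the pseudocount was added (log2 ratio -0.91). Of the 5 measured genes 2 were called higher, where 34.3% of 13140 were, and 2 lower, where 29.8% were, with medians of -0.91 for the 5 genes and 0.09 for all. This comparison differs in age as well as tissue, and these cannot be told apart. It also shares its LN library with both comparisons above.

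The 10-month Foxp3Cre and 4-month lean adipose libraries differ in age within the same tissue, and also in Ddx3y, Xist and Gapdh. Age and the sex read from Ddx3y and Xist cannot be told apart here. Gzmb was at 176 CPM in both. Klrk1 was at least 52.8-fold higher and Cd8a at least 20.1-fold higher in the 10-month library, and Cd8b1 9.74-fold higher (2.39 to 85.4). For Klrk1, no value in lean adipose was taken as no reads. Nkg7 was 3.30-fold lower (3.06 to 3.57), and Gzma had no value in the 10-month library against 45 reads in lean adipose. Of the 6 measured genes 3 were called higher, where 28.4% of 13825 were, and 2 lower, where 32.7% were, with medians of 0.85 for the 6 genes and -0.17 for all.

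The library labelled Med23 KO against 10-month Foxp3Cre separated the CD8 chains. Cd8b1 was 21.3-fold higher in the library labelled Med23 KO (13.8 to 34.6), at 54.0 scaled counts against 2.53 in Foxp3Cre, while Cd8a had no reads against 7.82 scaled counts, at least 13.3-fold lower. Gzmb was 5.69-fold lower (4.87 to 6.69), at 34.2 in the library labelled Med23 KO against 195 in Foxp3Cre. Klrk1 was 5.01-fold lower (3.18 to 8.29), at 4.11 in the library labelled Med23 KO against 20.6 in Foxp3Cre. Nkg7 was 1.97-fold higher (1.80 to 2.15), at 202 in the library labelled Med23 KO against 103 in Foxp3Cre, and Eomes had 17 reads against 1, 28.9-fold higher with an interval of 4.53 to 1209. Of the 6 measured genes 2 were called higher, where 28.6% of 13496 were, and 3 lower, where 34.9% were, with medians of -0.55 for the 6 genes and -0.15 for all. The authors' scaling and CPM differ in this table, moving the median of all genes to 0.15, and in CPM Nkg7 was 2.43-fold higher (2.22 to 2.66) and Gzmb 4.61-fold lower (3.95 to 5.42). Of genes at 5 to 20 CPM in Foxp3Cre, the range of Cd8a, 31.9% were listed at 0 in the library labelled Med23 KO, and of genes at 20 to 80 CPM in the library labelled Med23 KO, the range of Cd8b1, 6.91% were listed at 0 in Foxp3Cre. The authors' deposited table marks Gzmb, Cd8b1 and Klrk1 as changed, and every direction here rests on a label that Med23 itself did not follow.

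In each of the 6 comparisons these counts came from 5 to 8 genes, and with so few genes none of the shares is read as setting the group apart from all genes.

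**Figure D3:**
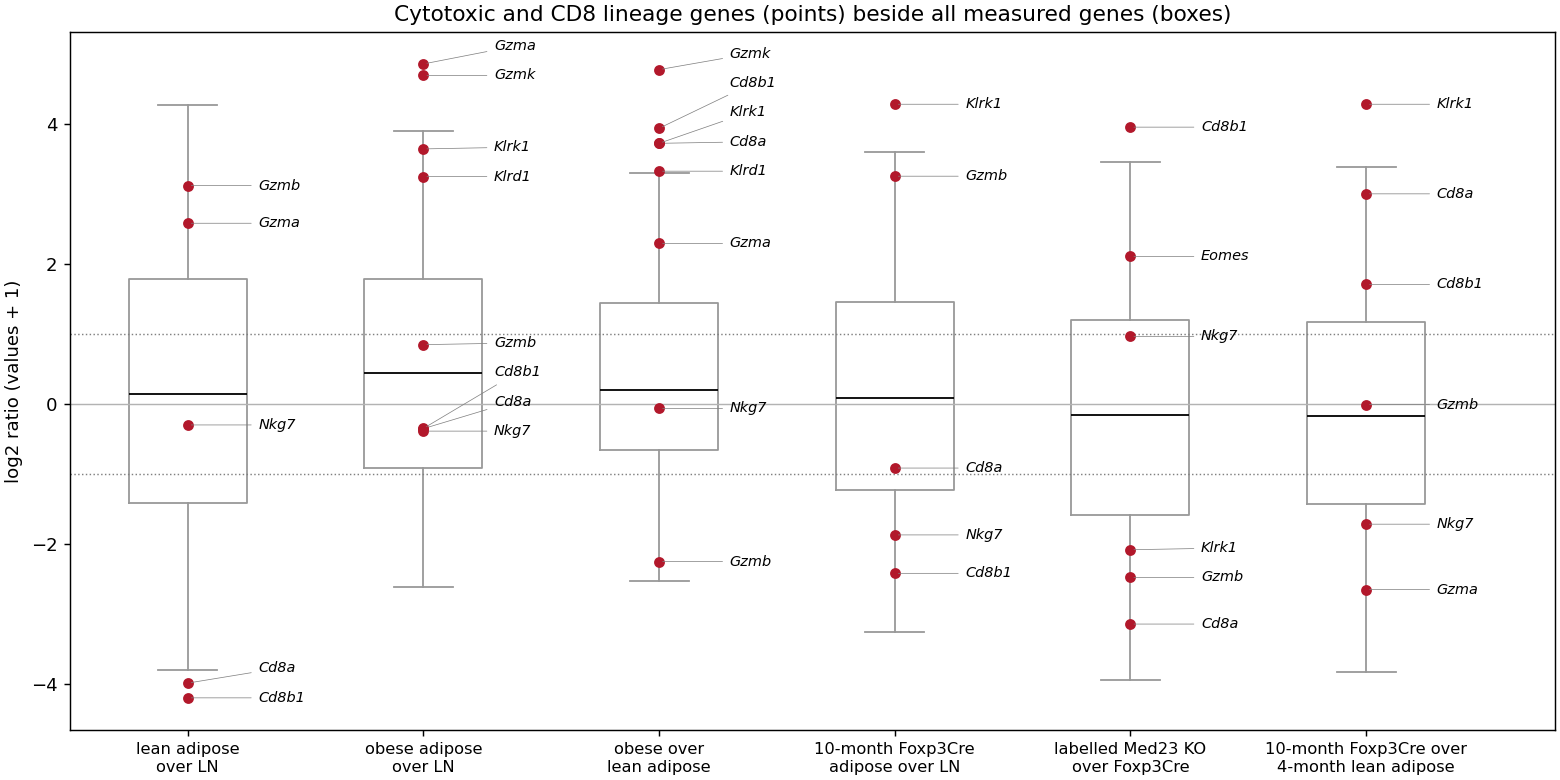
Ratios, log2 of (value + 1) over (value + 1), of the measured genes of the group (labelled points) in 6 comparisons, beside all measured genes (box from the lower to the upper quartile with the median, whiskers at the 5th and 95th percentiles), with dotted lines at 2-fold. Gzmb lies above 2-fold for lean adipose and for 10-month Foxp3Cre over LN and below it for obese over lean adipose and for the library labelled Med23 KO over Foxp3Cre, where Cd8b1 is at 3.96 and Cd8a at -3.14.

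Markers of other cells that could carry these genes were read in the same libraries. NK cells are known to carry most of these genes. Of 5 defining NK markers, Ncr1, Klra4 and Klra8 were listed at 0 or had no value in all 5 libraries, and Klrb1c was at 1.86 CPM in LN alone. The list summed to 59.9 CPM in the library labelled Med23 KO (Klre1 alone), 0 in 10-month Foxp3Cre, 10.8 in obese adipose (Klre1 alone), 0 in lean adipose and 1.86 in LN. Markers of gamma delta and innate-like T cells, which can carry the alpha form of CD8, had 2 of 5 above 0 in the library labelled Med23 KO (sum 77.7 CPM, Tcrg-C2 at 72.0), 2 in 10-month Foxp3Cre (15.8), 1 in obese adipose (2.001), 1 in lean adipose (3.86) and 0 in LN. Trdc was above 0 in 10-month Foxp3Cre alone, and reads of the similar Tcrg-C genes may have been split in counting.

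Markers of the dendritic cells that carry CD8 alpha had 6 of 8 above 0 in the library labelled Med23 KO (sum 61.8 CPM), 5 in 10-month Foxp3Cre (48.3), 7 in obese adipose (70.7), 4 in lean adipose (116.5, of which 89.9 was Irf8) and 3 in LN (28.9). Their defining marker Clec9a was at 0 in all 5 libraries, and Xcr1 was at 11.97 CPM in the library labelled Med23 KO, 5.29 in 10-month Foxp3Cre, 8.54 in obese adipose, 18.9 in lean adipose and 22.4 in LN. Macrophage markers differed widely between libraries, with 5 of 10 above 0 in the library labelled Med23 KO (sum 105 CPM), 9 in 10-month Foxp3Cre (658), all 10 in obese adipose (4892), 9 in lean adipose (887) and 1 in LN (7.01). The sum was highest in the obese library, where Gzma, Gzmk and Klrd1 were highest too, and Tyrobp moved with it. Of the macrophage markers, 9 of 9 measured were lower in the library labelled Med23 KO than in Foxp3Cre, beside 34.9% of all genes. Their part in the results was not tested.

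B cell markers had 4 of 5 above 0 in the library labelled Med23 KO (sum 13.9 CPM), 1 in 10-month Foxp3Cre (7.77), 2 in obese adipose (25.8), 1 in lean adipose (3.51) and 4 in LN (101). Mast cell markers, relevant because mast cells carry granule proteases, summed to 0 in the library labelled Med23 KO, 5.18 CPM in 10-month Foxp3Cre, 1.87 in obese adipose, 0 in lean adipose and 8.15 in LN. Stromal markers summed to 0 in the library labelled Med23 KO, 48.0 CPM in 10-month Foxp3Cre, 10.4 in obese adipose, 915 in lean adipose and 0 in LN. Cd3e was at 212 CPM in the library labelled Med23 KO, 213 in 10-month Foxp3Cre, 160 in obese adipose, 142 in lean adipose and 319 in LN, and of the 11 genes of the CD4 lineage and shared T cell list 10 were above 0 in the library labelled Med23 KO and all 11 in the other 4 libraries. In lean adipose over LN 1 of these 11 was higher and 6 lower, beside 37.6% and 32.1% of all genes (median log2 ratio -1.30, against 0.14), among them Cd247, a signalling chain of the receptor complex, at 18.3 CPM in lean adipose and 153 in LN, and Cd28, a co-stimulatory receptor, at 62.2 CPM in lean adipose and 689 in LN. The counts were 1 higher and 4 lower in obese adipose over LN, beside 41.7% and 23.7% (-0.73, against 0.44), 1 higher and 4 lower in 10-month Foxp3Cre over LN, beside 34.3% and 29.8% (-0.20, against 0.09), and 0 higher and 4 lower in the library labelled Med23 KO over Foxp3Cre, beside 28.6% and 34.9% (-0.66, against -0.15). No list of CD8 T cell markers free of the genes described here was available, since Cd8a and Cd8b1 are those markers, so a CD8 T cell share in any library was not tested.

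**Figure D4:**
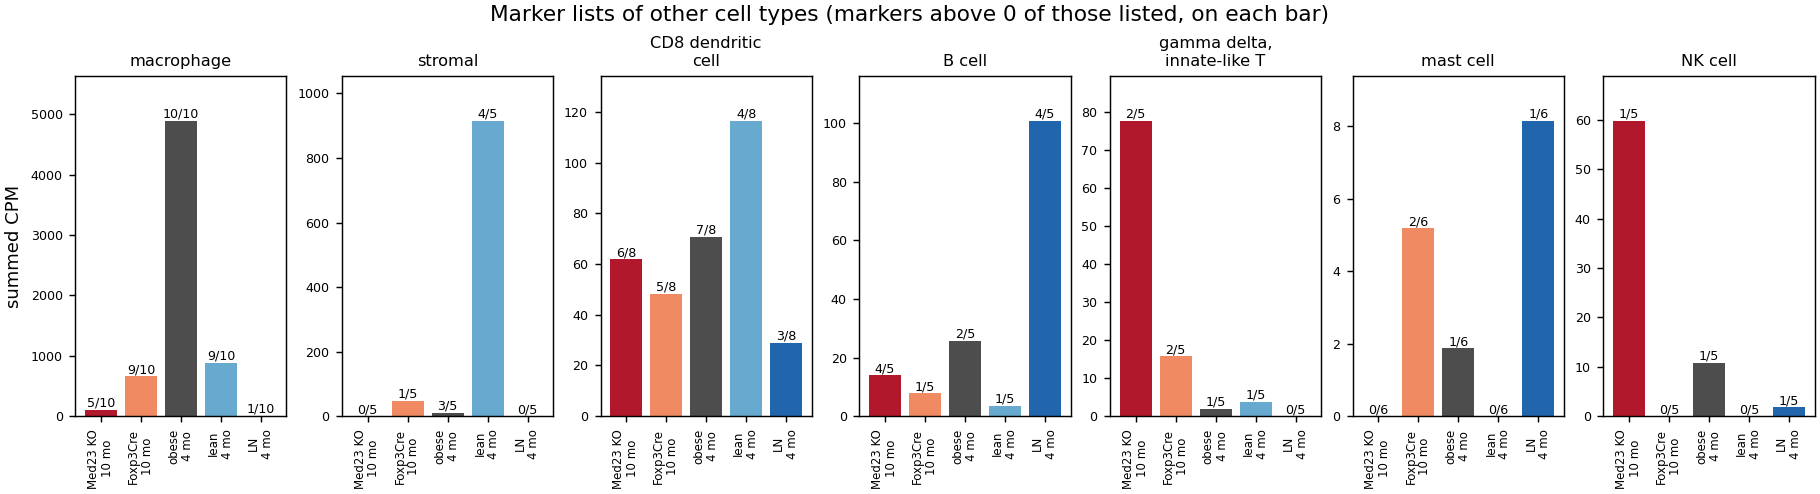
Summed CPM (vertical axes, linear from 0) of 7 marker lists of other cell types in the 5 libraries, with the number of markers above 0 of those listed on each bar. Macrophage markers reach 4892 CPM in obese adipose, stromal markers 915 CPM in lean adipose, and the NK sum of 59.9 CPM in the library labelled Med23 KO is 1 gene, Klre1.

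For the 5 genes above 0 in at least 3 libraries, the genes most alike in profile were found by the distance between centred log2(CPM + 1) values over the 5 libraries, among 11155 genes at 5 CPM or more in some library. For Nkg7 they were Pet100 (distance 0.24), Rab11fip2 (0.28) and Rnf213 (0.34), and for Gzmb Rnf122 (0.63), Tctn3 (0.69) and Mapkbp1 (0.76). For Cd8a they were Ptges2 (0.34), Zcchc24 (0.40) and Fahd2a (0.46), each with 0 in lean adipose and in the library labelled Med23 KO. For Cd8b1 they were Tex9 (0.71), Zfp444 (0.98) and Vps39 (0.99), and for Klrk1 Cxcr5 (0.67), Flot1 (0.84) and Mthfsd (0.89). Neither CD8 chain was among the nearest genes of the other, and with 5 libraries such distances are a description only.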

How the data were processed

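RNA of sorted Tregs was extracted with Trizol and made into libraries with a TruSeq kit of Illumina (per the labels' protocols), and 1 library was sequenced per group. Bowtie2 2.0.6, TopHat2 2.0.9 and the mm8 build are named in the submitters' processing notes. The counting program, annotation and strand setting are not stated there. The authors deposited 3 tables, each with 2 libraries, holding scaled read counts (a signal, not raw counts) with log2 fold changes, their p-value and q-value, and a mark. The deposited p-values and q-values compare 2 libraries and were not used.

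In each library, 100% of the nonzero deposited scaled counts fell on multiples of a fixed step, to within 0.01 read, which gave the reads. Values under 1 were deposited as 0. Their reads were worked out from the authors' log2 fold change, which used 0.5 scaled counts for no reads. IDs without a value had no LN reads in the other table in 324 of 324 and 273 of 273 checkable cases. For the adipose libraries this could not be checked, and no value was taken as no reads. No count model was fitted, because the values under 1 are missing.

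Ratios are log2((value + 1)/(value + 1)) with a 2-fold threshold for genes at 1 or more in at least 1 library, on scaled counts within a table and on CPM across tables, since the tables were normalised separately. The pseudocount understates ratios of low genes. Folds in the text are read ratios without it, with exact Clopper-Pearson 95% intervals. PCR copies of a molecule could not be recognised, so intervals cover counting error only, and a count of 0 was given a floor of 3 reads per library. Symbols came from a name table for 49326 of 49927 IDs, and for a symbol with several IDs the one with more reads stood for it. Exon lengths are from GENCODE M21 and promoter sequences from RefSeq, and neither is of the mm8 build.

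The genes and the 15 companion lists were chosen with earlier results of these data known. Named genes were all 10 genes, 15 fixed companions (Cd4, Zbtb7b, Cd3e, Foxp3, Ncr1, Klrb1c, Hcst, Tyrobp, Klrc1, Tbx21, Runx3, Serpinb9, Srgn, Xcr1 and Clec9a), up to 4 of each list per comparison by size of ratio, and 3 genes by likeness of profile. Other genes are named where few of a list stood above 0. Med23, Ddx3y, Xist, Gapdh and Cdk2ap2 were singled out with their values known. Alternatives were other pseudocounts, filters, thresholds, scalings, centring and summing of IDs. Software was Python 3.11.15 (pandas 2.3.3, scipy 1.17.1, numpy 2.4.6, matplotlib 3.10.9), and the calculations were tested on simulated data.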

Additional observations from a re-analysis of the deposited data

Results flagged for a closer look

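Cd8b1 stood out because adipose libraries moved in opposite directions against the same LN library. Its log2 ratio in CPM + 1 over LN was 1.80 in the library labelled Med23 KO, -2.42 in 10-month Foxp3Cre and -4.13 in lean adipose. Without the pseudocount Cd8b1 was 3.64-fold higher in the library labelled Med23 KO than in LN (2.99 to 4.45). Each value rests on 1 library, the 3 share the LN library, and the difference between them was not tested.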

How the results depend on the processing

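Counts of called genes were recomputed under 104 alternatives, and 100 were within 1.5 times the reported count. At a 4-fold threshold 1 gene was lower in 10-month Foxp3Cre than in LN (2 at 2-fold), and 1 was lower in 10-month Foxp3Cre than in lean adipose (2 at 2-fold). With a pseudocount of 5, or a minimum value of 5, 1 gene in place of 2 was higher in the library labelled Med23 KO than in Foxp3Cre, since Eomes dropped out. Of 291 recomputed ratios of single genes none changed sign among the called ones, and 219 of 221 recomputed ratios of called genes kept their 2-fold call. The exceptions, both with a pseudocount of 5, were Eomes in the library labelled Med23 KO over Foxp3Cre (log2 0.74) and Cd8b1 in 10-month Foxp3Cre over lean adipose (0.54). Putting resolved reads in place of listed zeros was chosen after seeing the data and moved no count by more than 1.5 times. No paired analysis was possible because each group has 1 library, and for the same reason no replicate could be left out. Depth limits the low genes: 1 read is worth most in the library labelled Med23 KO, the shallowest, and genes listed at 0 there may hold up to 5 reads.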

Other observations

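Cytokine and chemokine genes that cytotoxic cells share with other lymphocytes had patterns of their own. Ifng, the gene of interferon gamma, had 106 CPM in the library labelled Med23 KO, 138 in obese adipose, 118 in lean adipose and 131 in LN, but no reads in 10-month Foxp3Cre. Ccl4, a chemokine of activated T cells and macrophages, had 15.0 CPM in the library labelled Med23 KO, 12.95 in 10-month Foxp3Cre, 2076 in obese adipose, 621 in lean adipose and 7.53 in LN. Ccl5 had 524 CPM in the library labelled Med23 KO, 180.0 in 10-month Foxp3Cre, 537 in obese adipose, 511 in lean adipose and 158 in LN. Cxcr6, a receptor of tissue-resident T cells, had 80.1 CPM in the library labelled Med23 KO, 1808 in 10-month Foxp3Cre, 375 in obese adipose, 660.0 in lean adipose and 81.9 in LN. Of the 13 genes of this list, 6 of 10 measured were at least 2-fold higher and 1 lower in lean adipose over LN, beside 37.6% and 32.1% of all genes (median log2 ratio 1.48, against 0.14). In obese adipose over LN 7 of 11 were higher and 1 lower, beside 41.7% and 23.7% (1.59, against 0.44), and in 10-month Foxp3Cre over LN 5 of 12 were higher and 2 lower, beside 34.3% and 29.8% (0.55, against 0.09). In the library labelled Med23 KO over Foxp3Cre 3 of 12 were higher and 5 lower, beside 28.6% and 34.9% (-0.40, against -0.15).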
